A study of Mus musculus with 15 samples.

Results

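The interferon-inducible GTPases are a group of cytosolic enzymes that cells make after exposure to interferon. A list of 10 of them was followed here through RNA-seq of mouse ileum, the last stretch of the small intestine: the immunity-related GTPases Igtp, Irgm1, Irgm2 and Iigp1, and the guanylate-binding proteins Gbp2, Gbp3, Gbp6, Gbp7, Gbp8 and Gbp9. Of the 10, 9 were found among the 37620 gene identifiers of both count tables. Gbp6 was not matched, because its GENCODE M21 identifier is not in either table. The tables hold instead ENSMUSG00000079362, named Gm43302 in that annotation, whose exons overlap those of Gbp6 and Gbp10. It is given beside the members as a neighbour, picked once the tables had been read.

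The study deleted Rfx6, which encodes a transcription factor needed by the hormone-secreting cells of the gut lining, in adult mice. The animals labelled mutant were Rfx6f/f; Vilin-CreERT2, so that both Rfx6 alleles were flanked by loxP sites and a tamoxifen-activated Cre recombinase was driven by the Villin promoter, which is active in intestinal epithelium. Controls carried loxP-flanked Rfx6 without the recombinase. They were Rfx6f/f in the 8-day cohort, and 2 Rfx6f/f and 2 Rfx6f/+ in the 3-month cohort. All groups share the tamoxifen treatment in the labels, which was 10 mg by gavage, given 2 times a day on alternate days over 5 days, and no group carried the recombinase without loxP sites at Rfx6. Ileum was taken 8 days after tamoxifen (3 control and 4 mutant libraries) or 3 months after it (4 and 4), from mice described as adult with no further age. The labels do not say that each library came from a separate mouse, so the p-values measure the spread between these samples, which may in part be technical.

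Total counts per library were between 26078462 and 54468586. Counts of Rfx6 itself did not fall under the mutant label: by edgeR's quasi-likelihood test the log2 difference was 0.19 (SE 0.18, adjusted p 0.867) at 8 days and 0.72 (SE 0.17, adjusted p 0.0347) at 3 months. The proglucagon gene Gcg was at 38.6 to 69.0 counts per 1000000 (CPM) in the 3-month controls, and at most 0.174 CPM under the mutant label. A count of Rfx6 over the whole gene cannot show the loss of exons between the loxP sites, so it does not check the deletion, and groups are named by their labels throughout. The tissue label was checked on 10 genes of ileal epithelium, among them the ileal bile acid genes Fabp6 and Slc10a2. They had at least 4612 counts each in every library.

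Interferon gamma, a cytokine secreted mainly by T cells and natural killer cells, binds a receptor whose Janus kinases relay the signal to the nucleus. There it acts through a short DNA element called GAS and through a second one, the interferon-stimulated response element or ISRE, which is bound by factors such as Irf1, itself induced by interferon. The immunity-related GTPases and guanylate-binding proteins are classical products of this pathway. They assemble on the membranes around intracellular parasites and bacteria and help to break them. Within the family, Irgm1, Irgm2 and Igtp act as regulators that sit on the cell's own membranes and keep the effector proteins, such as Iigp1, in check. The guanylate-binding proteins are larger and also take part in the response to bacteria that reach the cytosol.

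RefSeq promoter windows (250 bases before to 50 after an annotated start, build GRCm38.p6) were at hand for 6 members: Igtp, Irgm1, Irgm2, Gbp2, Gbp3 and Gbp7. They were searched on both strands for the ISRE core, which is GAAA followed by any 2 bases and GAAA again, and for the GAS core TTCNNNGAA, which reads the same on either strand. Each of the 6 genes held at least 1 ISRE match, against 3.99% of the 27025 genes with a window. The match is not particular to them: it was also found in 6 of 9 other interferon-inducible GTPases with a window (66.7%) and in 10 of 17 type I and III interferon targets (58.8%). The stretches around these matches are printed 5′ to 3′ along the gene, with the matched ISRE letters in capitals, because they are what was read of these genes apart from their counts. The promoters of Iigp1, Gbp8 and Gbp9 were not searched.
Igtp, chr11:58199497-58199556, plus strand: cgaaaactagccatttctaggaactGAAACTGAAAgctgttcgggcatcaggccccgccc
Irgm2, chr11:58214888-58214947, plus strand: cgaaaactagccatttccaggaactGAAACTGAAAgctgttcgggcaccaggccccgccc
Irgm1, chr11:48871410-48871475, minus strand: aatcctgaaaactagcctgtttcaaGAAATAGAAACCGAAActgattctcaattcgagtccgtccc
Gbp2, chr3:142620579-142620638, plus strand: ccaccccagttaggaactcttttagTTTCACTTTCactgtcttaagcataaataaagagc
Gbp3, chr3:142559974-142560039, plus strand: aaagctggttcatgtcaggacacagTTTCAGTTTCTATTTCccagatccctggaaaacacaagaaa
Gbp7, chr3:142530258-142530317, plus strand: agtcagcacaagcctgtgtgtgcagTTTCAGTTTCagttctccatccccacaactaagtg
The stretches of Igtp and Irgm2, which are neighbours on chromosome 11, were identical at 58 of 60 bases. In Irgm1 and in Gbp3 a pair of ISRE matches overlapped. Counted from the annotated start, the first matched base lay at -34 in Igtp, -64 in Irgm2, -30 and -24 in Irgm1, -59 in Gbp2, -45 and -39 in Gbp3 and -53 in Gbp7. The match of Gbp2, Gbp3 and Gbp7 is on the strand opposite to the gene. A GAS match was present in Igtp (at -45), Irgm2 (at -75) and Gbp7 (at -106 and -87), against 9.55% of the genes with a window. In Igtp and Irgm2 it lies just ahead of the ISRE letters, within the printed stretch. No GAS match was found in the windows of Irgm1, Gbp2 and Gbp3, which says only that these letters are absent there. Counted over genes with a window, an ISRE match stood in 10.7% of the 535 genes called lower at 3 months, in 3.95% of the 633 called higher and in 3.98% of all 11897 tested. A GAS match stood in 12%, 7.74% and 8.43% of the same sets. The members and the other listed interferon targets were not taken out of these sets, so the shares partly restate their calls.

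**Figure D1:**
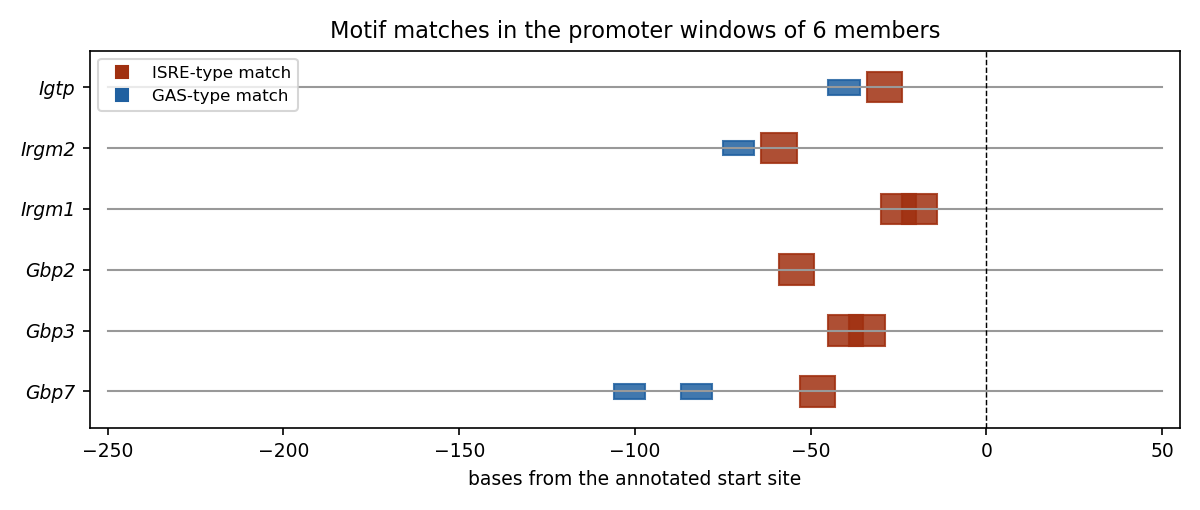
Positions of the ISRE matches (tall red boxes) and GAS matches (low blue boxes) in the promoter windows of 6 members, in bases from the annotated start site (dashed line). All ISRE matches fall between -64 and the start, and the GAS matches of Igtp, Irgm2 and Gbp7 lie upstream of them.

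Igtp, Irgm1, Irgm2, Iigp1, Gbp2, Gbp3, Gbp7, Gbp8 and Gbp9 were all lower in the 3-month libraries labelled mutant than in their controls, by 1.54-fold for Gbp3 to 5.69-fold for Igtp. All 9 passed the edgeR quasi-likelihood test at an adjusted p under 0.05, and no control overlapped a library labelled mutant for any of them. Of all 17085 genes tested at that time, 9.28% were called, 4.32% lower and 4.96% higher. Groups did not overlap for 10.6% in the lower and 8.76% in the higher direction. DESeq2 and limma-voom also called all 9, with 17.5% and 9.49% of all genes. With Rfx6f/f controls alone 1 of 9 was called, with 0.205% of all genes. Without control replicate 3 the number was 5 of 9, with 2.25% of all genes. In the main fit the median log2 fold change was -1.43 over the 9 members and 0.01 over all genes tested. At 8 days none of the 9 was called. These are whole-tissue values, in which fewer cells of a type and less RNA per cell cannot be told apart.

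Among the regulators, Igtp (ENSMUSG00000078853) showed the largest difference. In replicate order its 3-month controls stood at 88.8, 162, 158 and 110.5 CPM, and the libraries labelled mutant at 12.6, 47.2, 11.8 and 18.7 CPM. Mutant replicate 2 was the high one of its group, and it still lay below the lowest control. The means were 129.9 ± 36.1 and 22.6 ± 16.7 CPM (SD, n = 4 each), with a log2 fold change of -2.51 (SE 0.45, edgeR quasi-likelihood adjusted p 0.0166). Irgm2 (ENSMUSG00000069874), its neighbour, had 90.4, 139.7, 116 and 91.1 CPM in controls, and 19.9, 55.2, 12.3 and 21.7 CPM under the mutant label. Here too mutant replicate 2 stood above the rest of its group. The log2 fold change was -1.98 (SE 0.41, edgeR adjusted p 0.0252). Irgm2 kept its call in only 3 of 8 fits without 1 library: it was lost without control replicate 1, 2 or 3 or mutant replicate 1 or 4, with adjusted p up to 0.0697 by edgeR. Without mutant replicate 2 the log2 fold change was -2.59 for Irgm2 and -3.17 for Igtp, and without control replicate 3 Igtp had an edgeR adjusted p of 0.0507. Irgm1 (ENSMUSG00000046879), which lies elsewhere on chromosome 11, had the smallest spread of the regulators. Its values were 87.5, 127, 111 and 90.9 CPM in the controls against 35.3, 47.4, 29.9 and 40.1 CPM, a log2 fold change of -1.43 (SE 0.16, edgeR adjusted p 0.00341). In GENCODE M21, Igtp and Irgm2 share 162 bases of exon on the same strand (8.01% and 4.39% of their exon length), so reads there cannot be assigned to one of them with certainty.

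The effector Iigp1 (ENSMUSG00000054072) had 53.8, 101, 79.9 and 48.6 CPM in the 3-month controls. The libraries labelled mutant had 15.6, 31.9, 12.6 and 14.0 CPM, with replicate 2 again highest. The log2 fold change was -1.91 (SE 0.34, edgeR adjusted p 0.0161), which is 3.77-fold lower.

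Of the guanylate-binding proteins on chromosome 3, Gbp2 (ENSMUSG00000028270) differed most. It had 69.0, 109, 84.5 and 68.4 CPM in the 3-month controls and 26.5, 35.6, 24.7 and 23.5 CPM under the mutant label, a log2 fold change of -1.57 (SE 0.18, edgeR adjusted p 0.00380). Its nearest members differed less. Gbp7 (ENSMUSG00000040253) had 60.8, 88.5, 82.3 and 59.0 CPM against 30.9, 46.8, 38.7 and 29.7 CPM, or -0.97 on the log2 scale (SE 0.18, edgeR adjusted p 0.0182). Gbp3 (ENSMUSG00000028268) had the smallest difference, from 22.5, 29.0, 26.4 and 20.9 CPM to 13.4, 16.9, 17.2 and 15.9 CPM, or -0.62 (SE 0.12, edgeR adjusted p 0.0212). Reads in the 637 bases of exon that Gbp7 shares with Gm43802 on the same strand are uncertain.

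On chromosome 5, Gbp8 (ENSMUSG00000034438) had 28.9, 47.7, 45.4 and 42.3 CPM in the 3-month controls against 14.3, 21.6, 14.6 and 10.7 CPM. The log2 fold change was -1.41 (SE 0.22, edgeR adjusted p 0.0108). Gbp9 (ENSMUSG00000029298) had 20.8, 27.6, 21.6 and 20.7 CPM against 12.6, 16.1, 13.2 and 15.5 CPM (-0.65, SE 0.12, edgeR adjusted p 0.0182). Gbp8 and Gbp9 share 61 and 60 bases of annotated exon with each other or with Gbp4. Gm43302, the locus over Gbp6 and Gbp10, stood at 20.5, 32.2, 29.0 and 35.2 CPM in controls and at 4.37, 13.2, 3.27 and 5.04 CPM under the mutant label, a log2 fold change of -2.16 (SE 0.41, edgeR adjusted p 0.0194). Of its annotated exon bases 81.6% are shared with Gbp6 or Gbp10, so its counts cannot be given to one of these genes.

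**Figure D2:**
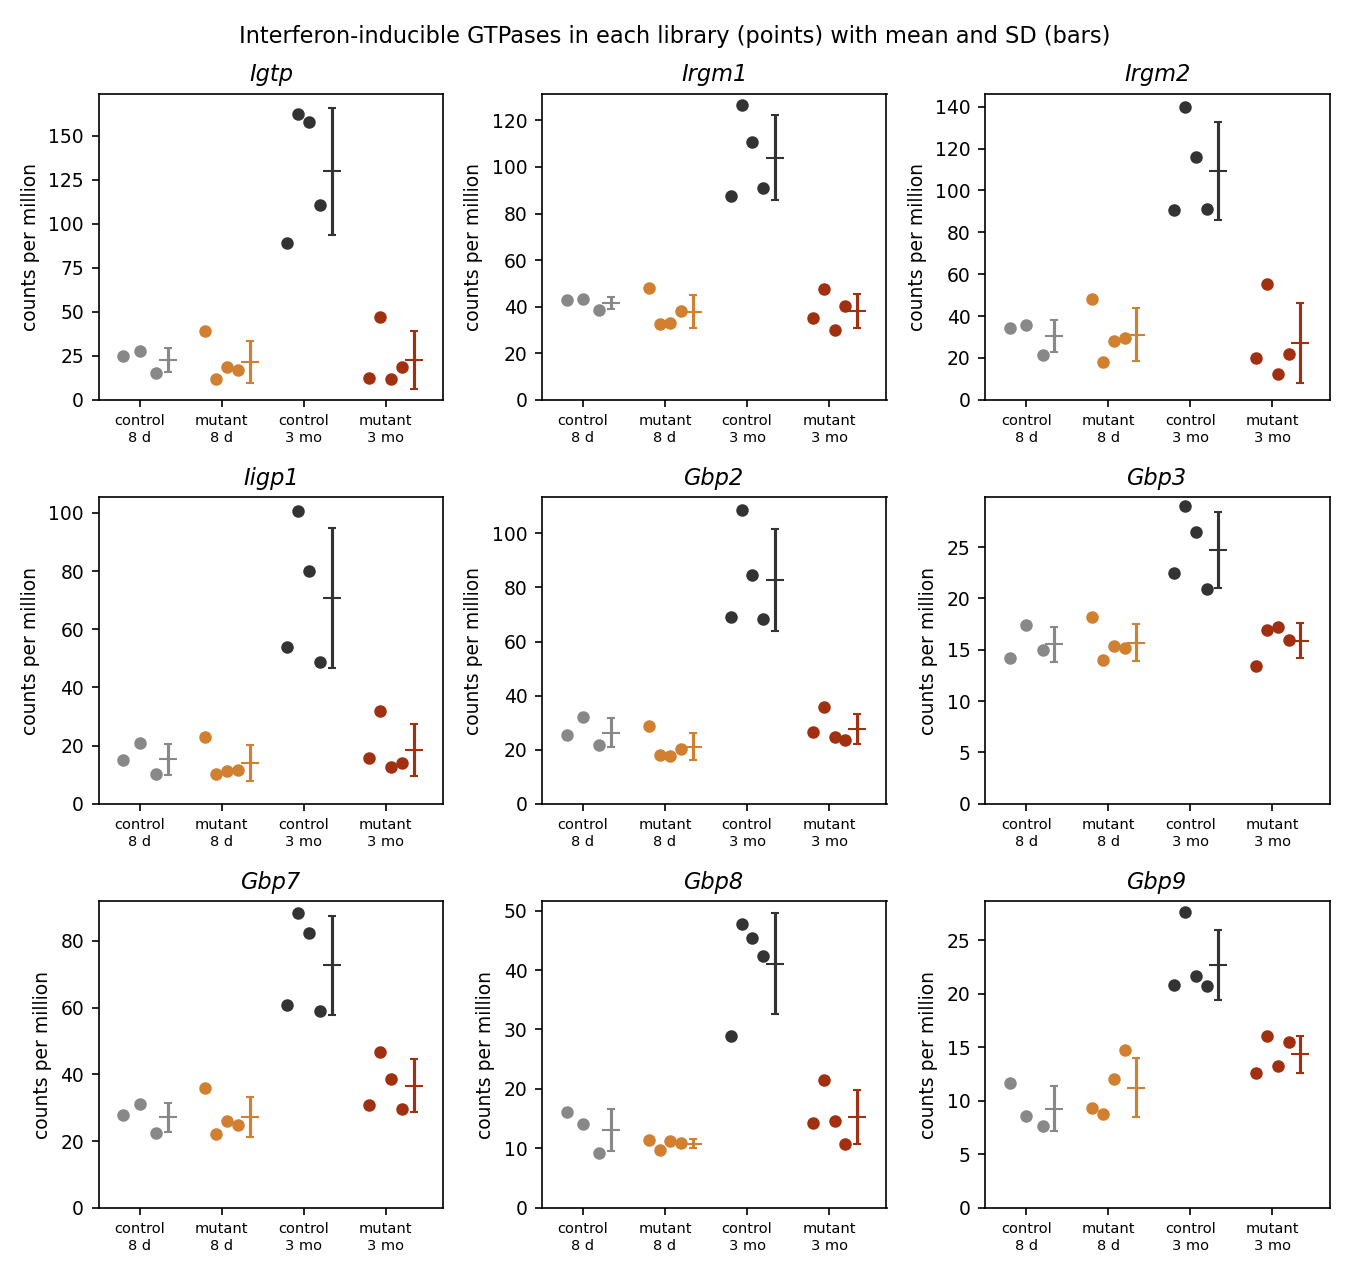
CPM of each of the 9 members in every library (points), with the group mean and SD beside them, for controls and libraries labelled mutant at 8 days (8 d) and 3 months (3 mo). In every panel the 4 controls of 3 months lie above the 11 other libraries, and the 2 groups of 8 days overlap.

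Control replicate 2 was the highest 3-month control for 9 of 9 members, and mutant replicate 2 was the highest 3-month library labelled mutant for 8 of 9, Gbp3 being the exception. The lowest library of these groups differed between members. With values centred within the 4 groups, the Pearson correlation between pairs of members over 15 libraries had a median of 0.71, from 0.17 (Gbp3 and Gbp9) to 0.97 (Iigp1 and Gbp2). The points share library depth and scaling, and these values are descriptions. The genes most like the mean of the members by the same measure, among 14290 genes averaging 1 CPM or more on the log scale, were Gm12250, Gm12185, Ccr9, Serpina3f, Dlg1, Eif1a, Tgtp2, Cxcl10, H2-D1 and Pim1, with r from 0.94 to 0.89. With values centred within each cohort only, Gm12250, Gm12185, Eif1a, Tgtp2 and Cxcl10 were again among the first 10, with r from 0.98 to 0.97, as were Il18bp, Irf1, Nlrc5 and Ifi47, with r from 0.97 to 0.96.

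The controls of 3 months held 2 genotypes. Replicates 2 and 3 are Rfx6f/+ and replicates 1 and 4 are Rfx6f/f. Both Rfx6f/+ libraries were above both Rfx6f/f libraries for 9 of 9 members, an arrangement seen in 24% of all 17780 genes tested. The log2 fold change of Rfx6f/+ over Rfx6f/f ran from 0.23 (Gbp9) to 0.80 (Iigp1). Other lists were split in the same comparison, where the median over all genes was 0.00. It was positive for 14 of 15 other interferon-inducible GTPases, 13 of 14 T cell markers and 7 of 8 B cell markers. Positive values were also found for 8 of 10 macrophage and dendritic cell markers and 12 of 24 type I and III interferon targets. It was negative for 5 of 5 exocrine pancreas markers, whose median was -3.74. None of these genes was called by edgeR. Unadjusted p was under 0.05 by edgeR for 6 of the GTPases, 1 of the T cell markers and 5 of the pancreas markers. The B cell, macrophage and type I and III lists held 0, 1 and 1 such genes. The part of these lists in the members' values was not tested. No member was called (edgeR adjusted p from 0.692 to 0.888), nor was any other gene (0% of 17780), and 3 of 9 had an unadjusted p under 0.05 by edgeR against 6.86% of all genes. DESeq2 (0.27% of all genes) and limma-voom (0%) called no member. That both Rfx6f/f controls lay above every library labelled mutant for 9 of 9 members follows from the lack of overlap given above. With the 2 Rfx6f/f controls alone, the log2 fold changes were -2.14 for Igtp, -1.22 for Irgm1, -1.73 for Irgm2, -1.46 for Iigp1, -1.31 for Gbp2, -0.44 for Gbp3, -0.70 for Gbp7, -1.21 for Gbp8 and -0.53 for Gbp9. Only Gbp2 passed the threshold in this fit (edgeR adjusted p 0.0443, the others from 0.0549 to 0.195), in which 0.205% of all genes did. Among fits that leave out 1 library, the number of members called at 3 months was lowest, 5 of 9, without control replicate 3, where 2.25% of all genes were called, and was 6 of 9 without control replicate 2, with 2.39%. Gbp3 and Gbp7 were among those lost in both.

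At 8 days the 2 groups overlapped for each of the 9 members, where 3.7% of all genes were lower and 3.98% higher without overlap. Igtp stood at 24.9, 27.7 and 15.2 CPM among controls and at 39.1, 11.6, 18.5 and 16.8 CPM under the mutant label, so that the highest and the lowest library were both labelled mutant. Irgm1 had 42.7, 43.3 and 38.4 CPM against 47.9, 32.4, 33.1 and 37.9 CPM. Irgm2 had 34.3, 35.5 and 21.5 CPM against 48.3, 18.0, 28.3 and 29.5 CPM. The same spread was seen in the effector Iigp1, with 15.02, 20.8 and 10.2 CPM against 23.1, 10.1, 11.2 and 11.7 CPM. Among the guanylate-binding proteins, Gbp2 had 25.4, 32.1 and 21.6 CPM against 28.7, 18.2, 17.7 and 20.1 CPM. Gbp3 ranged from 14.2 to 17.4 CPM among controls and from 14.0 to 18.2 CPM under the mutant label, and Gbp7 from 22.4 to 31.0 and from 22.03 to 35.9 CPM. Gbp8 ranged from 9.20 to 16.0 CPM among controls and from 9.75 to 11.3 CPM under the mutant label, and Gbp9 from 7.60 to 11.6 and from 8.73 to 14.8 CPM. Mutant replicate 1 was the highest of its group for 8 of 9 members, and control replicate 3 the lowest of its group for 8 of 9. The log2 fold changes ran from -0.32 for Gbp2 (SE 0.19) to 0.28 for Gbp9 (SE 0.22), with a median of -0.07 against 0.00 over all genes. No member was called (edgeR quasi-likelihood adjusted p from 0.729 to 0.998), none had an unadjusted p under 0.05, and DESeq2 and limma-voom called none. Of all 17493 genes tested at 8 days, 0.0915% were called (0.0572% lower and 0.0343% higher), 1.02% by DESeq2, and 8.80% had an unadjusted p under 0.05.

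The change of the effect between the time points was tested in one fit of all 15 libraries. All 9 members had a more negative effect at 3 months than at 8 days, by -0.65 for Gbp3 to -2.46 for Igtp on the log2 scale. Irgm1 passed, with a difference of -1.32 (SE 0.23, edgeR quasi-likelihood adjusted p 0.0265), where 0.785% of all 17959 genes did. The other 8 had adjusted p from 0.0553 (Gbp2) to 0.0918 (Iigp1), and each of the 9 had an unadjusted p under 0.05, as did 16.6% of all genes. DESeq2 called 9 of 9, with 5.66% of all genes, while the fit with Rfx6f/f controls alone called none, with 0.0275%. Leaving out mutant replicate 2 of 3 months gave 7 of 9, with 1.93% of all genes called. Of the 15 fits without 1 library 8 gave 0, with 0.0549% to 0.229% of all genes. Each time is its own cohort, so time and cohort cannot be told apart.

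**Figure D3:**
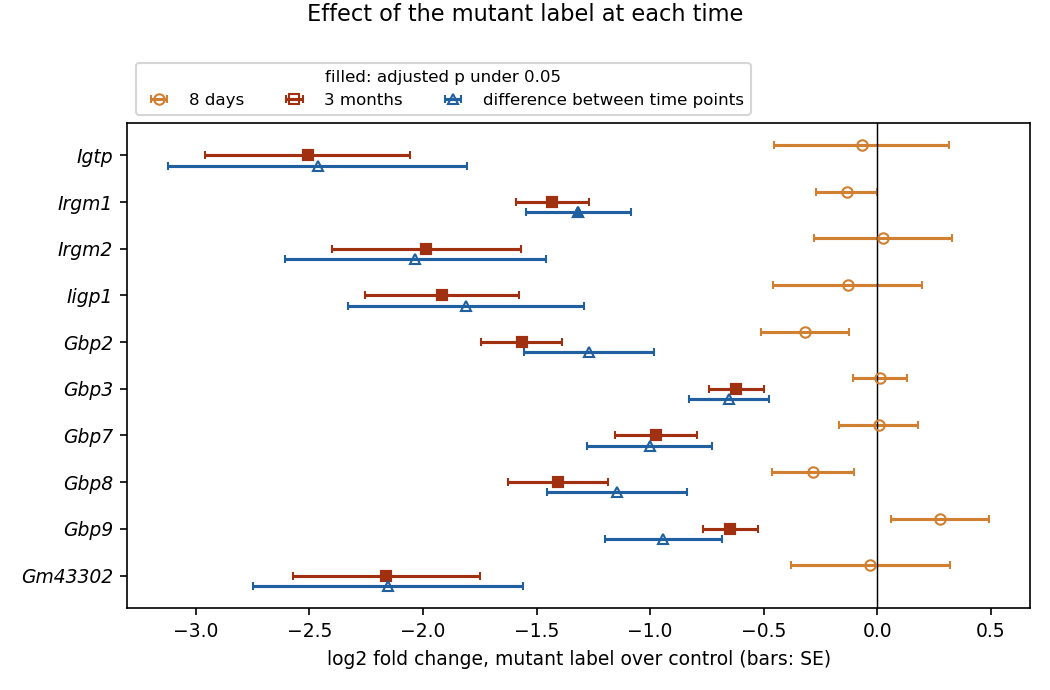
Log2 fold change of the libraries labelled mutant over control for the 9 members and the neighbour Gm43302 at 8 days (circles) and 3 months (squares), and the difference between these effects (triangles), with SE bars. Filled symbols passed an edgeR adjusted p of 0.05. At 8 days the values lie between -0.32 and 0.28, and at 3 months between -2.51 and -0.62.

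Set side by side over both cohorts, the 3-month controls were the group that stood apart. For 9 of 9 members the lowest 3-month control was above the highest of the other 11 libraries, as it was for 5.37% of all genes, with 4.73% in the opposite arrangement. The mean of the 3-month controls was 5.75 times that of the 8-day controls for Igtp, 4.61 times for Iigp1, 3.59 times for Irgm2, 3.14 times for Gbp2, 3.13 times for Gbp8, 2.68 times for Gbp7, 2.51 times for Irgm1, 2.45 times for Gbp9 and 1.59 times for Gbp3. The mean of the 3-month libraries labelled mutant was 0.897 (Irgm2) to 1.55 (Gbp9) times that of the 8-day controls. Between the 2 control groups, 25.1% of all genes were higher at 3 months without overlap and 24.4% lower, so the cohorts differ widely. These ratios compare cohorts and were not tested.

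Per kilobase of annotated exon, Igtp was the most abundant member in the 3-month controls, at 64.3 ± 17.8 CPM per kilobase (RPKM; SD, n = 4), followed by Gbp2 at 32.8 ± 7.51 and Irgm2 at 29.6 ± 6.37 RPKM, which overlapped. Irgm1 stood at 17.9 ± 3.15 RPKM, and its lowest libraries overlapped the highest of Gbp7 and Iigp1. Gbp7, Iigp1 and Gbp8 overlapped at 12.9 ± 2.66, 12.1 ± 4.16 and 11.9 ± 2.45 RPKM. Gbp3 and Gbp9 were lowest at 7.57 ± 1.13 and 4.39 ± 0.636 RPKM, and the ranges of Gbp3, Gbp8 and Iigp1 overlapped. In the 8-day controls Igtp (11.2 ± 3.25 RPKM) and Gbp2 (10.5 ± 2.13 RPKM, SD, n = 3) had the highest means, and the range of Irgm2 (8.25 ± 2.105 RPKM) overlapped both. Iigp1 (2.63 ± 0.907) and Gbp9 (1.79 ± 0.407) had the lowest means, and the range of Iigp1 overlapped those of Gbp8 and Gbp9. Lengths are from GENCODE M21 and may differ from the gene models the authors counted.

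Other interferon-inducible GTPases were taken from a list of 18, of which 15 were tested at 3 months. There 6 were called lower, against 4.32% of all genes, and none higher. With Rfx6f/f controls alone 1 of the 15 was called, in a fit that called 0.205% of all genes. Tgtp1 (-2.55, SE 0.33) and Tgtp2 (-1.80, SE 0.33), paralogs that act as effectors like Iigp1, had edgeR adjusted p of 0.00613 and 0.0170. The control mean of Tgtp1 was 4.35 ± 1.98 CPM and the mean under the mutant label 0.736 ± 0.102 CPM (SD, n = 4 in both). Reads that fit both paralogs equally may be split or lost, so the Tgtp1 and Tgtp2 values are uncertain. Ifi47 (-1.49, SE 0.25), Gm12250 (-2.13, SE 0.38), Gm4841 (-2.23, SE 0.35) and Gbp4 (-0.97, SE 0.20) had edgeR adjusted p from 0.0103 to 0.0243. Gbp2b (-0.42) and the antiviral dynamin-like GTPases Mx1 (-0.29) and Mx2 (-0.59) were not called, with adjusted p of 0.185, 0.319 and 0.101. The giant GTPase gene Gvin1 had a log2 fold change of 0.13 (adjusted p 0.549). At 8 days none of the 15 tested was called by edgeR.

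The ligand, interferon gamma, was scarce. Ifng had 18, 49, 29 and 31 counts in the 3-month controls against 4, 3, 0 and 7 counts, and the groups did not overlap. Its log2 fold change was -3.24 (SE 0.57, edgeR adjusted p 0.0159). At 8 days the controls had 10, 5 and 3 counts and the others 14, 2, 0 and 2, too few for the test, and the highest levels were 0.330 CPM among controls and 0.322 CPM under the mutant label. The receptor chains Ifngr1 (0.02) and Ifngr2 (0.29) and the kinases Jak1 (0.01) and Jak2 (0.23) were not called at 3 months (edgeR adjusted p 0.916, 0.101, 0.955 and 0.0546). Ifngr1 averaged 228.9 ± 10.5 CPM in controls and 229 ± 24.6 CPM under the mutant label.

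Downstream of the receptor, the transcription factor Irf1 averaged 405.6 ± 24.1 CPM in the 3-month controls against 199.9 ± 52.8 CPM (SD, n = 4 in both, edgeR adjusted p 0.0134). Socs1, a feedback inhibitor of the kinases, went from 13.7 ± 3.01 to 2.95 ± 0.939 CPM (-2.20, SE 0.23, adjusted p 0.00269). The regulators of MHC class I and II genes, Nlrc5 (-1.76) and Ciita (-0.95), and Irf8 (-0.88) were called too, with edgeR adjusted p of 0.0178, 0.0126 and 0.0117. Stat2 (-0.41), Irf9 (-0.40), Irf2 (0.19), Socs3 (-0.35) and Ptpn2 (-0.04) were not. In all, 6 of the 15 signalling genes listed here were lower and 0 higher at 3 months, against 4.32% and 4.96% of all genes. The difference between the time points passed for Socs1 (-2.47, edgeR adjusted p 0.0104), 1 of the 15 here. It was also called, lower, for 1 of 15 other GTPases and 1 of 13 other interferon gamma targets. The same held for 1 of 14 T cell markers and 1 of 8 B cell markers, but 0 of 24 type I and III targets. Over all genes 0.406% were called lower in that fit.

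Among 13 other targets of interferon gamma that were tested, 10 were called lower at 3 months and none higher, against 4.32% and 4.96% of all genes. The median log2 fold change of the 13 was -0.70. Cd274, which encodes the checkpoint ligand PD-L1, averaged 35.7 ± 5.65 CPM in controls against 10.7 ± 1.31 CPM (-1.72, SE 0.13, edgeR adjusted p 0.000555). The chemokines Cxcl9 (-1.69) and Cxcl10 (-1.94), the tryptophan-degrading enzyme Ido1 (-1.71) and the peptide transporter subunit Tap1 (-1.48) were also lower, with adjusted p from 0.00878 to 0.0367, as were the immunoproteasome genes Psmb8, Psmb10, Psme1 and Psme2 and the transporter subunit Tap2, with log2 fold changes from -1.21 to -0.59. Cxcl11 (-0.09, adjusted p 0.894), Tapbp (-0.43, adjusted p 0.110) and B2m (-0.51, adjusted p 0.108) were not called.

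Targets more typical of type I and III interferons made a further list. Of 24 tested, 7 were lower at 3 months and 0 higher, against 4.32% and 4.96% of all genes. The median of the 24 was -0.60 on the log2 scale. Zbp1 (-1.79), Rsad2 (-1.38), Ifit1 (-1.08), Oas3 (-1.08), Ifit3b (-0.88), Parp14 (-0.86) and Ifit2 (-0.68) passed, with edgeR adjusted p from 0.0151 to 0.0479. Isg15 (-0.83), Irf7 (-0.16) and Oas1a (-0.31) did not (adjusted p 0.107, 0.606 and 0.343). The 4 ligands Ifnb1, Ifna4, Ifnl2 and Ifnl3 had 0 to 2 counts in every library, and none of the 5 receptor and kinase genes was called. With Rfx6f/f controls alone 1 of the 13 other interferon gamma targets was called, and none of the 24 type I and III targets or the 15 signalling genes. Only 0.205% of all genes were called in that fit, so these low counts do not set the lists apart.

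**Figure D4:**
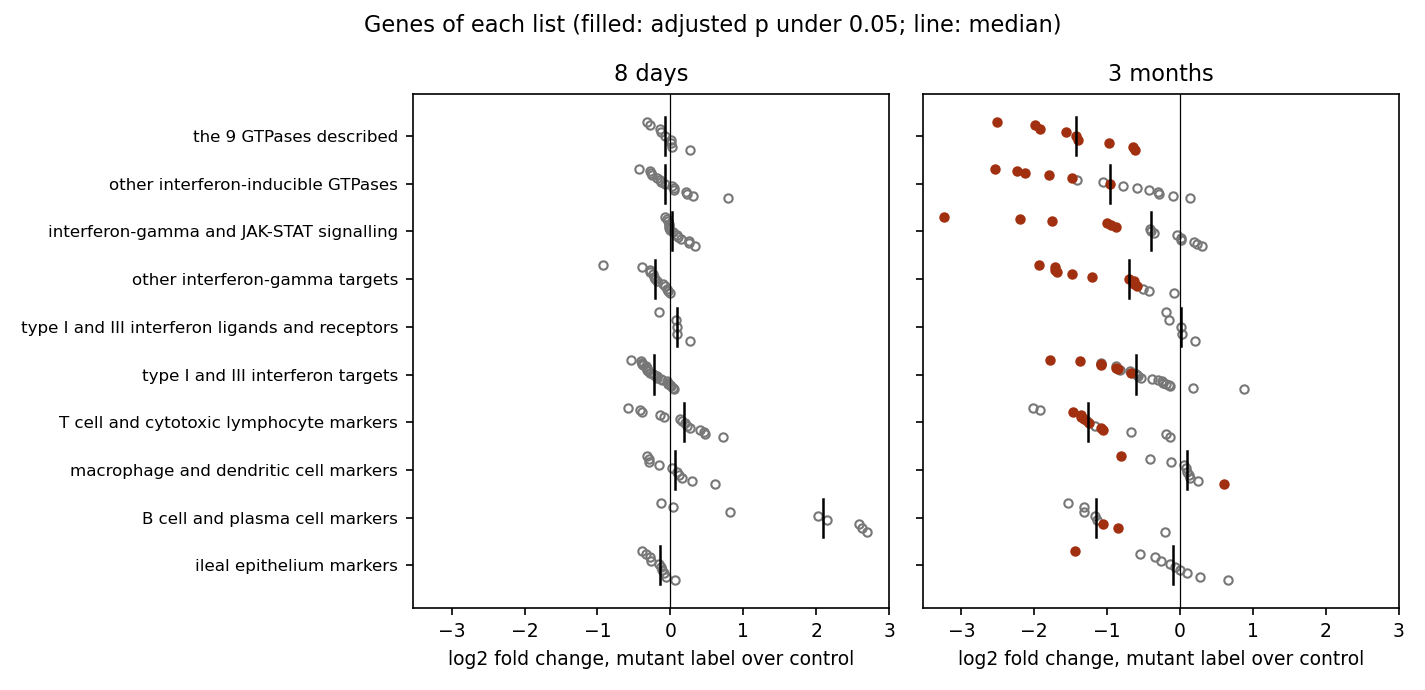
Log2 fold change of each tested gene (points) by list at 8 days and 3 months, with filled points for an edgeR adjusted p under 0.05 and a line at the list's median. At 3 months all 9 members lie below 0 and are filled, and at 8 days no point is filled.

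At 3 months 7 of 14 T cell and cytotoxic lymphocyte markers were lower and 0 higher, against 4.32% and 4.96% of all genes. Among the 7 were Cd8a (-1.35, edgeR adjusted p 0.0426), Nkg7 (-1.47, adjusted p 0.0286) and Trac (-1.36, adjusted p 0.0277). The others called were Cd3d (-1.06), Cd3g (-1.24), Cd247 (-1.09) and Cd8b1 (-1.32). Their summed level was 212.5 to 305.7 CPM in the 3-month controls against 47.7 to 162 CPM, with the highest of the latter in mutant replicate 2. Much of this sum is Gzma and Gzmb, with 117.8 and 40.7 CPM on average in the 3-month controls, and neither was called (edgeR adjusted p 0.0507 and 0.0546). Cd4 (-0.13) and Ncr1 (-0.20) were not called either. At 8 days it was 63.8 to 111.8 CPM against 53.8 to 117.2 CPM. No marker of the list was at 0 in any library. Of 8 B cell and plasma cell markers 2 were lower (Jchain and Mzb1), and the summed level was 2330 to 3191 CPM in the 3-month controls against 1314 to 1777 CPM, most of it Jchain (2293 CPM on average in these controls). At 8 days the median log2 fold change of these 8 was 2.09, and none was called by edgeR. With Rfx6f/f controls alone no marker of either list was called at 3 months, in a fit that called 0.205% of all genes. The part of these cells in the members' values was not tested.

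Markers of epithelium and of other tissues were counted in the same way. Of 10 ileal epithelium markers 1, Fabp6 (-1.44, edgeR adjusted p 0.00873), was lower at 3 months, and their median log2 fold change was -0.10. Epithelial markers summed to 14979 to 17085 CPM in the 3-month controls against 11524 to 14904 CPM. Of 10 macrophage and dendritic cell markers Itgam was lower and Csf1r higher, with a median of 0.09. Of 5 endothelial markers 3 were higher, Cdh5 (0.49), Kdr (0.58) and Emcn (0.56), and none of 6 smooth muscle markers was called. Over all genes 4.32% were called lower and 4.96% higher. With Rfx6f/f controls alone no epithelial, macrophage, dendritic cell, endothelial or smooth muscle marker was called, in a fit that called 0.205% of all genes. The 5 exocrine pancreas markers, which should be absent from ileum, summed to 36.3 to 1116 CPM in the 3-month controls, with the highest value in control replicate 4, against 19.4 to 333.5 CPM under the mutant label. Without control replicate 4 the number of members called at 3 months was 9 of 9, with 8.77% of all genes called. The part of pancreas RNA in the members' values was not tested.

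**Figure D5:**
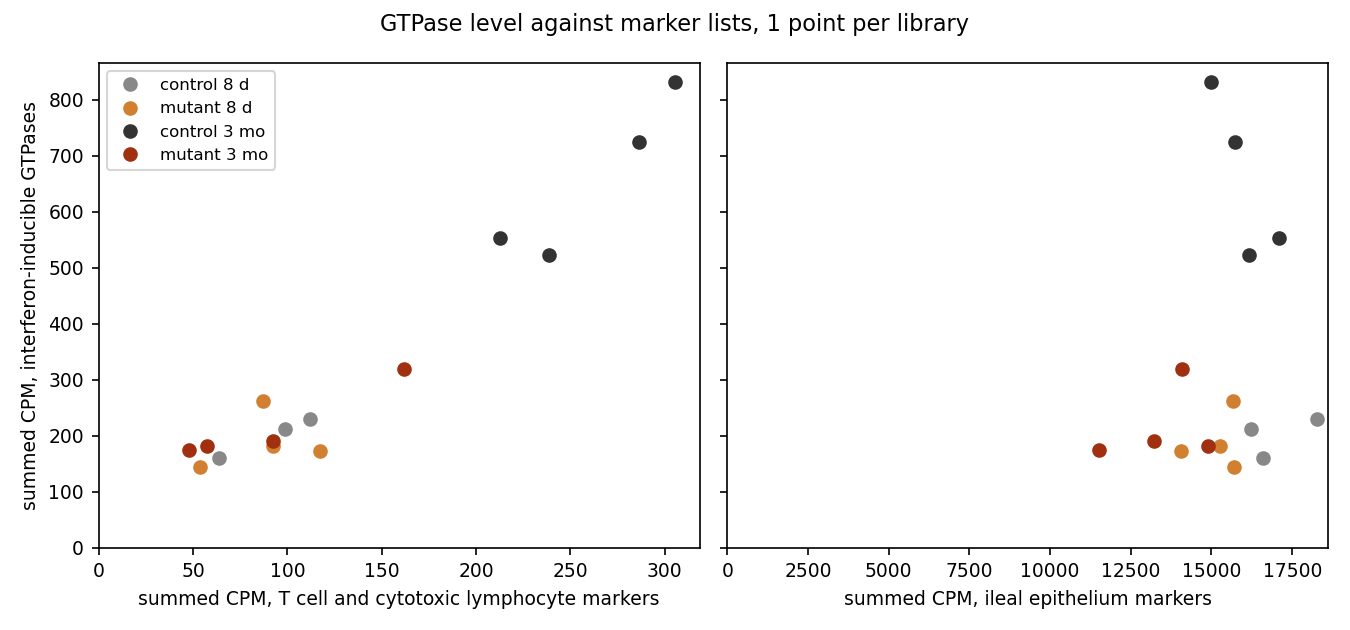
Summed CPM of the 9 members in each library against the summed CPM of T cell and cytotoxic lymphocyte markers (left) and of ileal epithelium markers (right), 1 point per library coloured by group. The 4 controls of 3 months are highest for the members and for the T cell markers, and among the 3-month libraries labelled mutant the highest point of both is replicate 2.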

How the data were processed

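The authors deposited unnormalized read counts by Ensembl identifier, with 1 table per cohort and 1 column per library. Total RNA was depleted of ribosomal RNA, per the labels' protocols. The submitters' processing notes name TopHat2 2.0.10, Bowtie2 2.1.0, HTSeq 0.6.1 and the build mm9, without their roles. The counting mode, strand setting and annotation are not given in the sources used here. Groups came from the genotype and time labels, and replicates are numbered in deposit order. Symbols came from GENCODE M21 (GRCm38), which paired 87.45% of the identifiers. As the builds differ, coordinates are printed only for the RefSeq promoters.

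Tests used edgeR 4.0.16 (quasi-likelihood, R 4.3.3) after filterByExpr (minimum count 10) and TMM scaling, fitted on all genes of each comparison and with calls at 0.05 after Benjamini-Hochberg adjustment, two-sided. CPM use TMM factors over all 15 libraries. DESeq2 1.42.0, limma-voom (limma 3.58.1), RLE scaling, other filters, a joint fit, a fit on Rfx6f/f controls, and fits lacking 1 library were the alternatives. Tests were first run on simulated counts. Within groups, no pair of libraries matched within counting error (chi-square per degree of freedom at least 11.3).

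Named were the members, the genes of fixed lists that were called or belong to the interferon pathway, and the 10 genes most like the members. Cd4, Ncr1, Gzma and Gzmb, which were not called, were added after their values were seen. Members and lists were chosen with earlier results of these data known. 1 gene of the signalling list is not reported here and is left out of that list's counts.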

Additional observations from a re-analysis of the deposited data

Results flagged for a closer look

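Of 75 checks for a library far from the rest of its group (25 genes, Dixon's criterion), 5 met it, where 3.75 would be expected by chance at a rate of 1 in 20. Iigp1 was 23.1 CPM in mutant replicate 1 of 8 days against 10.1 to 11.7 in the other 3, and 31.9 CPM in mutant replicate 2 of 3 months against 12.6 to 15.6. Gbp9 was 27.6 CPM in control replicate 2 of 3 months against 20.7 to 21.6. Socs1 was 4.35 CPM in mutant replicate 2 of 3 months against 2.40 to 2.62, and Irf2 was 27.7 CPM in mutant replicate 1 of 3 months against 16.5 to 18.3. Of these 25 genes, 2 had an effect that differed between the time points by the edgeR interaction test. The log2 differences were -1.32 for Irgm1 (adjusted p 0.0265) and -2.47 for Socs1 (0.0104).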

How the results depend on the processing

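At 3 months the 9 members kept their direction in all 135 fits of a member under an alternative. In 117 of these they stayed called, and the calls lost came from the fit with Rfx6f/f controls only (1 of 9 called) and from leaving out 1 library (5 to 9 of 9). A further threshold of 1 on the absolute log2 fold change left 6 of 9, without Gbp3, Gbp7 and Gbp9, and 2% of all genes. Of the 14 alternatives at 8 days, 7 leave out 1 library, and the fold threshold can only remove calls. At 8 days 0 of 9 members were called in all 14. There Irgm2 changed sign with limma-voom, to -0.0099, and without 1 library the log2 fold changes ran from -0.53 to 0.14 for Igtp, -0.27 to 0.22 for Irgm2, -0.48 to 0.16 for Iigp1, -0.068 to 0.11 for Gbp3 and -0.16 to 0.12 for Gbp7. For the difference between time points, 9 of 9 were called by DESeq2, 2 with no filter (0.799% of all genes), 2 with 10 counts in every library (1.61%), 0 with Rfx6f/f controls only (0.0275%), and 0 to 7 without 1 library (0.0549% to 4.19%). For the control genotypes 0 members were called throughout, as were 0% of all genes in each setting but DESeq2 (0.27%). The causes of these changes were not tested. The Rfx6f/f fit has 2 controls instead of 4, so fewer controls and control genotype cannot be told apart in it. No paired analysis was made, because the labels pair no control library with a library labelled mutant. Ifng had 0 to 49 counts per library and did not pass the count filter at 8 days.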
